A study of Rattus rattus with 18 samples.

Results

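Brain tissue labelled peri-ischemic was compared between rats subjected to transient middle cerebral artery occlusion (tMCAO) and sham-operated rats. The comparison took 6 of the 18 miRNA arrays of the series by their titles, 3 tMCAO arrays titled periischemic and 3 sham arrays titled peri.sham, each from a separate rat. All 761 rat miRNA probes on each array were considered, and 532 of them, detected on at least 3 of the 18 arrays, were tested. All rats carried the Sprague Dawley background, and the methods of the study describe males in which a filament blocked the artery and was later withdrawn. Sham rats had the surgery without the blockage. The labels give neither age nor the time between occlusion and tissue collection. The labels place the peri samples in the striatum and the core samples in the temporo-parietal cortex, whereas the methods name these regions the other way round, so the tissue is called peri or core here without a region. Further arrays entered only where named, namely the core arrays of the same rats and 3 peri arrays of rats given remote limb postconditioning (PostC), for which the labels do not say whether the artery was also occluded.

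miRNAs are short RNAs that guide a silencing complex to messenger RNAs, mostly by pairing of the seed, the stretch from base 2 to base 8, with the target transcript. miRNAs with the same seed are grouped into families and can act on overlapping sets of transcripts. In brain, some miRNAs are abundant in neurons, such as miR-124 and miR-128, whereas others mark oligodendrocytes, white blood cells or vessels, and miR-210 is known for its induction by low oxygen. A piece of tissue holds all these cells, so fewer cells of a type and less RNA per cell cannot be told apart.

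The sequences that carry the comparison are the array targets below, given by the deposited spot tables from 5′ to 3′, with the seed in capitals. The first set is shown because these miRNAs passed the adjusted test or had the largest positive differences, together with close neighbors in sequence.
miR-10a-5p: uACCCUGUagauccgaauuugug
miR-664-1-5p: cUGGCUGGggaaaaagauugg
miR-664-2-5p: cUGGCUGGggaaaaugauugg
miR-129-1-3p: aAGCCCUUaccccaaaaag
miR-129-2-3p: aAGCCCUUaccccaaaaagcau
miR-3084a-3p: uUCUGCCAguccccuucagaca
miR-3084c-3p: cUGCCAGUucccuucagacaa
let-7e-5p: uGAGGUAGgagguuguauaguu
let-7a-5p: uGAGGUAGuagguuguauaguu
The second set is shown because these miRNAs had large negative differences, with the nearest relative of miR-181c-5p.
miR-568: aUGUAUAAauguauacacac
miR-218a-5p: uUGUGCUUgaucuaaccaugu
miR-181c-5p: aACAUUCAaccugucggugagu
miR-181a-5p: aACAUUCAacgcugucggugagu
miR-21-5p: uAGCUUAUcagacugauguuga
The whole target of miR-129-1-3p is contained in that of miR-129-2-3p, with which it shares its first 19 bases. The targets of miR-664-1-5p and miR-664-2-5p differ by 1 edit, as do those of let-7e-5p and let-7a-5p and those of miR-181c-5p and miR-181a-5p. How far the probes of such pairs bind each other's target was not tested, so the values within a pair are uncertain.

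Fewer miRNAs were detected on the tMCAO arrays than on the sham arrays. A miRNA was called detected where the median of its 4 spots lay above the median of the empty spots of that array by 3 scaled median absolute deviations. On this limit, 471, 318 and 354 miRNAs were detected on the sham arrays of rats 1, 2 and 3, and 230, 213 and 189 on the tMCAO arrays of rats 1, 2 and 3. The empty-spot limit was itself higher on average on the tMCAO arrays, from 80.9 to 346 scanner units against 84.9 to 171 on the sham arrays, with overlapping groups (exact permutation p = 0.4), and its part in the counts was not tested. The counts did not overlap, and the means were 381 ± 80.0 and 211 ± 20.6 (SD, n = 3 rats each). The exact permutation test, two-sided, gave p = 0.1, the smallest value that 3 against 3 allows. With a limit set from the dimmest 25% of miRNA spots instead, the means were 513 ± 17.3 and 467 ± 9.61, again without overlap (exact p = 0.1).

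**Figure D1:**
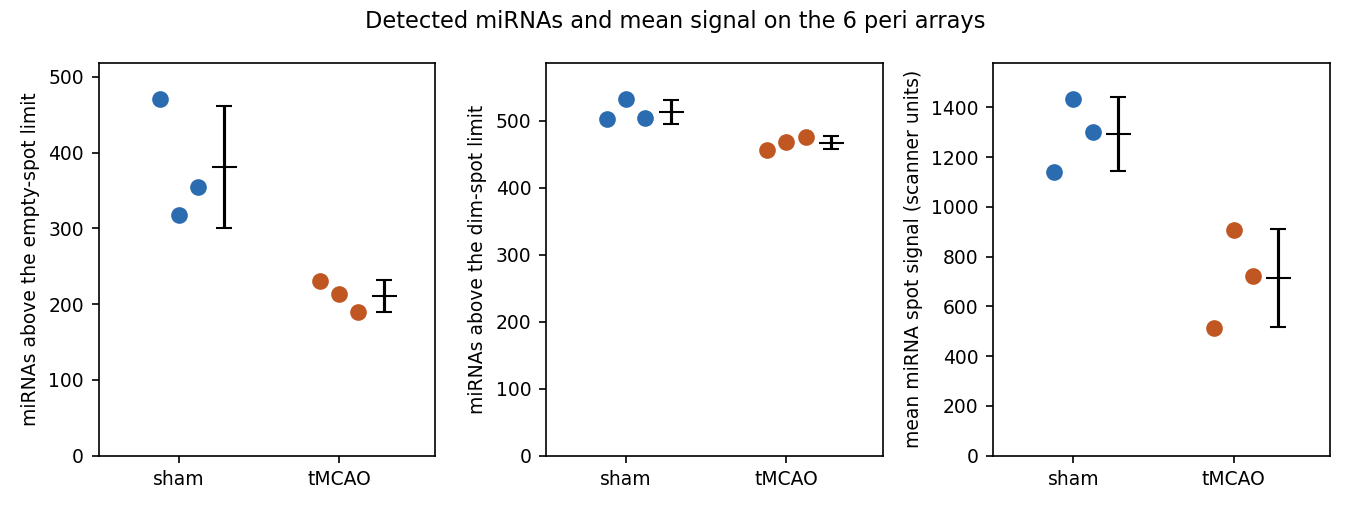
Points show the 3 sham and 3 tMCAO peri arrays, in order of rat number, and black bars show the mean and SD. The left and middle panels plot the number of miRNAs above the empty-spot and the dim-spot limit, and the right panel plots the mean signal of the miRNA spots in scanner units; the 3 tMCAO arrays lie below all 3 sham arrays in each panel.

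The mean signal of the miRNA spots before normalization was also lower on the tMCAO arrays. It was 1138, 1435 and 1302 scanner units on the sham arrays and 512, 907 and 724 on the tMCAO arrays, a ratio of group means of 0.553 (exact permutation p = 0.1). The spike-in control spots had a ratio of 0.627 with overlapping groups (exact permutation p = 0.3), and the 5S ribosomal RNA probes had a ratio of 0.648 (exact permutation p = 0.2). The median miRNA spot had group means of 113 in sham and 112 in tMCAO, a ratio of 0.987. It ran from 110 to 119 scanner units in sham and from 49.1 to 157 in tMCAO. The part of these differences between arrays in the values below was not tested. Before normalization, 194 of the 532 tested miRNAs (36.5%) were lower on every tMCAO array than on every sham array and 1 (0.188%) was higher. Each difference below is therefore one relative to the other miRNAs of the array, on the log2 scale of intensities normalized between arrays by cyclic loess.

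Cyclic loess over the miRNA spots centers the arrays on each other, so a median near 0 is set by the normalization. The median difference, tMCAO minus sham, was -0.01 on the log2 scale, with quartiles of -0.28 and 0.27, with 258 miRNAs (48.5%) higher and 274 (51.5%) lower. Arrays correlated across the 532 miRNAs between 0.958 and 0.975 within sham, between 0.966 and 0.978 within tMCAO and between 0.925 and 0.963 across the groups, which describes the arrays without a test.

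In limma fitted over the 9 peri arrays, 3 of 532 miRNAs (0.564%) passed the Benjamini-Hochberg adjusted p of 0.05, all of them higher after tMCAO by normalized value and none lower. Without adjustment 81 (15.2%) had a p under 0.05, of which 43 (8.08%) were higher and 38 (7.14%) lower. The groups did not overlap for 168 miRNAs (31.6%), of which 83 (15.6%) were higher and 85 (16%) lower. These splits depended on the scaling, since with median scaling 48 of the miRNAs under that p were higher and 186 lower, and 50 of those without overlap were higher and 229 lower. Median scaling centers each array on its median miRNA spot. On tMCAO rats 1, 2 and 3 that spot read 49.1, 157 and 129 scanner units, against 47.9, 136 and 221 for the median empty spot. On sham rats 1, 2 and 3 it read 119, 110 and 111, against 64.8, 107 and 89.4. The part of this background level was not tested. The count depended on which arrays set the spread. With the 6 compared arrays alone, 27 miRNAs (5.08%) passed, 11 (2.07%) higher and 16 (3.01%) lower. With 1 PostC array left out (rat 3), 36 passed, 18 in each direction. That array correlated at 0.894 to 0.898 with the other PostC peri arrays, and on average at 0.959 with the tMCAO arrays and 0.921 with the sham arrays. Each compared array mattered as well, since 9 passed without tMCAO rat 3 and 0 passed without any other of the 6.

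**Figure D2:**
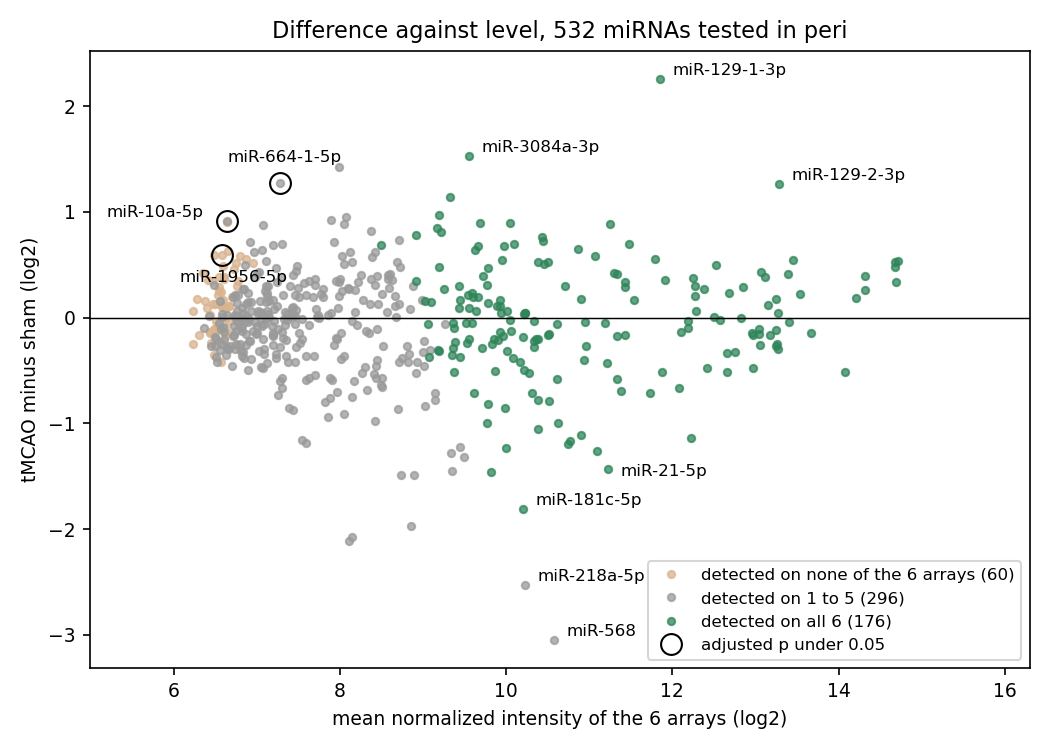
Each point is 1 of the 532 tested miRNAs, with its mean normalized intensity over the 6 arrays (log2) on the x axis and tMCAO minus sham (log2) on the y axis, colored by the number of arrays that detected it; open circles mark the 3 miRNAs past the adjusted test. These 3 lie at the dim end, below a mean of 8, while miR-129-1-3p is the highest point and miR-568 the lowest, neither of them passing.

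The miRNAs past the adjusted test were dim. miR-10a-5p, which is encoded in a Hox gene cluster, had normalized log2 intensities of 6.31, 6.15 and 6.11 in sham rats and 7.24, 7.03 and 7.03 in tMCAO rats. All tMCAO values lay above all sham values. It passed with a limma adjusted p = 0.0312. The miRNA was detected on none of the sham arrays and on 1 of the 3 tMCAO arrays, so its size is only a bound. Set against the lowest signal that counted as detected, it was at least 1.09-fold higher in tMCAO. It passed in 9 of 23 alternative settings (limma adjusted p from 0.00212 to 0.544) and not, for example, with quantile normalization (limma adjusted p = 0.0703). The lower limit from dim spots called it detected on all 3 tMCAO arrays and still on none of the sham arrays. Its relative miR-10b-5p did not pass the filter on dim signal and was not tested.

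miR-664-1-5p had normalized log2 intensities of 6.56, 6.81 and 6.57 in sham and 7.55, 8.30 and 7.91 in tMCAO, with means of 6.64 and 7.92 (limma adjusted p = 0.0312). The normalized values did not overlap, but it was detected on 1 sham array and on no tMCAO array, so no size is given. The same holds for its near-identical neighbor miR-664-2-5p, which did not pass (limma adjusted p = 0.131). miR-1956-5p had 6.29, 6.25 and 6.31 in sham and 6.96, 6.85 and 6.81 in tMCAO (limma adjusted p = 0.0312). It was not well above background on any of the 6 arrays, so no size is given either. Its call was lost with loess over the 9 peri arrays and with quantile normalization (limma adjusted p = 0.625 and 0.666), as was that of miR-664-1-5p (limma adjusted p = 0.179 and 0.188). Over all alternative settings miR-664-1-5p passed in 7 of 23 and miR-1956-5p in 8 of 22.

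The differences were also counted by how many arrays detected a miRNA. Of the 532 tested miRNAs, 60 were detected on none of the 6 arrays, 296 on 1 to 5 and 176 on all 6. An unadjusted p under 0.05 was found for 17 of the 60 (28.3%), 43 of the 296 (14.5%) and 21 of the 176 (11.9%). Among the undetected miRNAs 15 of these were higher and 2 lower, whereas among those detected on all 6 arrays 11 were higher and 10 lower. None of the 176 passed the adjusted test, and 7 of them passed when the 6 compared arrays alone set the spread, against 5.08% of all tested miRNAs.

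A rule on size named the miRNAs with the largest differences. It took miRNAs whose groups did not overlap, whose unadjusted p was under 0.05 and which were detected on all 3 arrays of the brighter group. It left 34 miRNAs, 11 higher and 23 lower, of which 21 were detected on all 6 arrays. The detection step favored lower miRNAs, since fewer miRNAs were detected on the tMCAO arrays, so the split of 11 and 23 is no finding. By non-overlap alone, 83 (15.6%) of all tested miRNAs were higher and 85 (16%) lower. Of the 34, the 10 largest in each direction are described, and since the rule used these values the separation of their groups is no finding. Their adjusted p ran from 0.0736 to 0.265 among the higher and from 0.0995 to 0.300 among the lower, so none of them passed. All 10 higher miRNAs were detected on all 6 arrays, against 3 of the 10 lower ones. The rule required tMCAO detection of the higher miRNAs only, and more miRNAs were detected on the sham arrays, so this contrast is no finding.

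**Figure D3:**
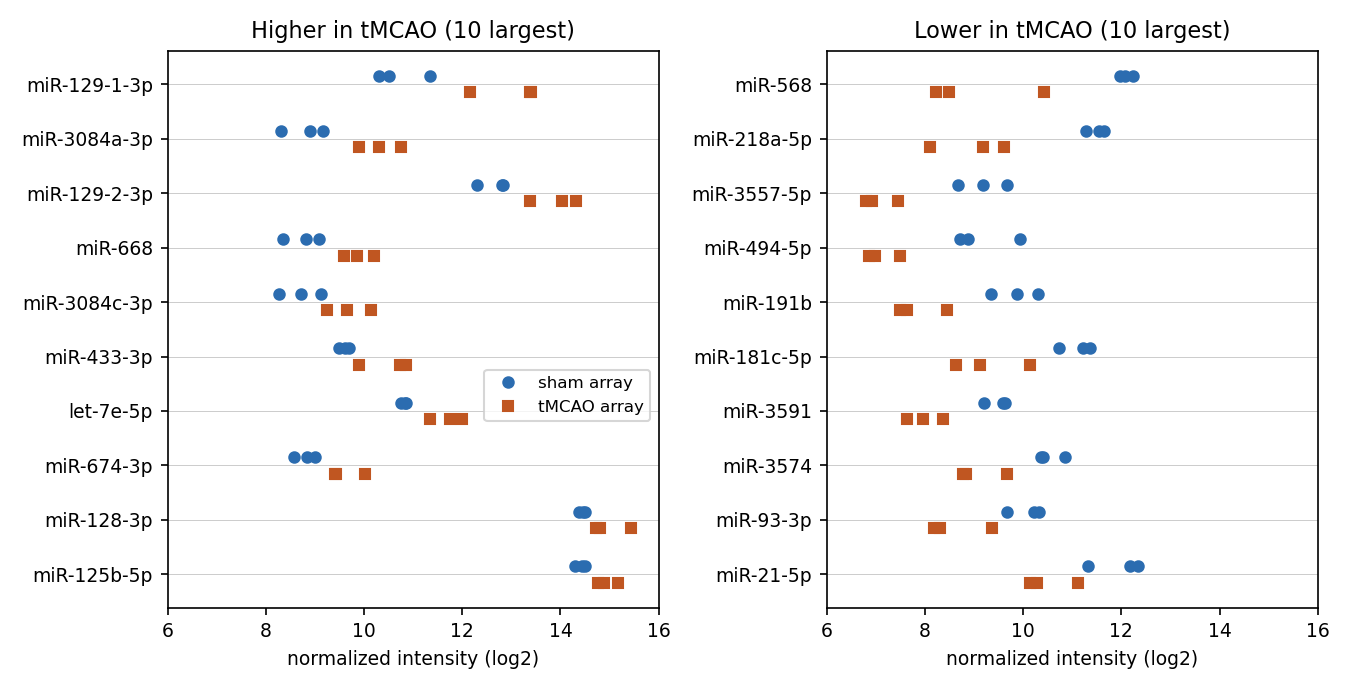
Normalized intensity (log2) on each of the 3 sham arrays (blue circles) and 3 tMCAO arrays (orange squares) for the 10 largest differences in each direction under the rule on size. The left panel holds the miRNAs that were higher, from miR-129-1-3p to miR-125b-5p, and the right panel those that were lower, from miR-568 to miR-21-5p; the groups do not overlap in any row, which the rule required.

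The miRNA with the largest positive difference was miR-129-1-3p, a 3p arm of the brain-enriched miR-129. It had normalized log2 intensities of 10.31, 11.35 and 10.50 in sham and 13.38, 13.39 and 12.16 in tMCAO. Tissue of tMCAO rat 3 was the lowest of its group and still above all sham rats. The difference was 2.26 with a standard error of 0.51 (limma adjusted p = 0.0736, and 0.0134 with the 6 arrays alone). miR-129-2-3p, which shares its seed and its first 19 bases, had 12.30, 12.81 and 12.84 in sham and 14.32, 14.04 and 13.37 in tMCAO. Its difference of 1.26 with a standard error of 0.29 was smaller (limma adjusted p = 0.0796, and 0.0301 with the 6 arrays alone). Their 5p partner, miR-129-5p, stood at -0.21 with overlapping groups (limma unadjusted p = 0.583). Before normalization the ranges of miR-129-1-3p overlapped, from 1574 to 3761 scanner units in sham and from 3062 to 9167 in tMCAO.

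Of the 10 higher miRNAs under the rule on size, miR-3084a-3p also passed with the 6 arrays alone. It had normalized log2 intensities of 8.31, 8.89 and 9.17 in sham and 10.76, 10.30 and 9.89 in tMCAO, a difference of 1.53 with a standard error of 0.39 (limma adjusted p = 0.127, and 0.0301 with the 6 arrays alone). miR-3084c-3p, whose seed differs, was at 0.97.

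The remaining higher miRNAs spanned a range of roles. miR-668 and miR-433-3p, both transcribed from the imprinted Dlk1-Dio3 locus, had differences of 1.14 and 0.89. let-7e-5p had log2 intensities of 10.86, 10.74 and 10.83 in sham and 11.75, 11.99 and 11.35 in tMCAO, a difference of 0.89. Its relative let-7a-5p, 1 edit away, was at 0.23. The sham rats lay close together for let-7e-5p, and the spread came from the tMCAO rats. miR-674-3p was at 0.81.

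miR-128-3p, a neuronal miRNA, and miR-125b-5p, a miRNA abundant in brain, were among the bright probes and had small differences. miR-128-3p had log2 intensities of 14.50, 14.47 and 14.37 in sham and 15.43, 14.80 and 14.72 in tMCAO, a difference of 0.54 with a standard error of 0.22. miR-125b-5p had 14.43, 14.50 and 14.30 in sham and 15.17, 14.88 and 14.77 in tMCAO, a difference of 0.53 with a standard error of 0.17. Rat 1 was the highest of the tMCAO group for both. Before normalization both had overlapping ranges, and so did 9 of the 10 higher miRNAs, the exception being miR-674-3p, which was lower in tMCAO by raw signal. With each array scaled only to its median, 6 of these 10 miRNAs, miR-125b-5p and miR-128-3p among them, were below 0, while the median of all tested miRNAs stood at -0.42. On the tMCAO arrays that scaling centers on a level near the empty spots, as given above.

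Apart from miRNAs whose difference is only a bound, which cannot be ranked, the largest negative differences were those of miR-568 and of miR-218a-5p, a miRNA carried in introns of the Slit genes and abundant in neurons. miR-568 had normalized log2 intensities of 11.98, 12.08 and 12.23 in sham and 8.23, 8.49 and 10.43 in tMCAO. Sham rats lay within a narrow range, and tMCAO rat 3 was nearest to them. The difference was -3.05 with a standard error of 0.75 (limma adjusted p = 0.0995, and 0.0129 with the 6 arrays alone). miR-218a-5p had 11.55, 11.27 and 11.65 in sham and 8.11, 9.60 and 9.18 in tMCAO, a difference of -2.53 with a standard error of 0.91 (limma adjusted p = 0.209, and 0.0129 with the 6 arrays alone). Both were detected on 3 sham and 2 tMCAO arrays.

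Of the lower miRNAs, 4 had no tMCAO array above the empty-spot limit, so their difference is given as a bound. miR-191b was at least 2.92-fold lower in tMCAO, miR-3591 at least 2.12-fold, and miR-494-5p and miR-3557-5p each at least 1.92-fold. All 4 passed with the 6 arrays alone (limma adjusted p from 0.0129 to 0.0167), as did 3.01% of all tested miRNAs on the lower side. The rule had chosen them on the same arrays and their tMCAO values lay at background, so this adds no support. miR-494-5p is the minor arm of a Dlk1-Dio3 miRNA. miR-3574 and miR-93-3p, the minor arm of a miRNA of the miR-106b-25 cluster, had differences of -1.46 and -1.45. The 10 lower miRNAs, chosen for groups that do not overlap, were lower without overlap in raw signal too, as were 36.5% of all tested miRNAs, and they stayed below 0 in all 6 other scalings tried.

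miR-181c-5p, a member of the miR-181 family, had log2 intensities of 11.22, 11.36 and 10.74 in sham and 8.64, 9.12 and 10.14 in tMCAO, a difference of -1.81 with a standard error of 0.53 (limma adjusted p = 0.161, and 0.0301 with the 6 arrays alone). It was detected on all 6 arrays, and tMCAO rat 3 again lay nearest to sham. miR-21-5p, which is known to be induced in injured tissue and in activated glia and white blood cells, had 12.18, 11.33 and 12.33 in sham and 10.13, 11.13 and 10.28 in tMCAO. The gap between the groups was narrow, with sham rat 2 just above tMCAO rat 2. The difference was -1.44 with a standard error of 0.64 (limma adjusted p = 0.300, and 0.0506 with the 6 arrays alone).

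Cell type markers were read from lists of miRNAs known for each cell type, and none of their members passed the adjusted test, against 0.564% of all tested miRNAs. Neuronal miRNAs were the best measured list, with 12 of 14 detected on all 6 arrays. Their median difference was 0.12, with 8 higher and 6 lower, and it was below 0 in 5 of the 6 other scalings tried, with plain subtraction of background and without tMCAO rat 1. It lies midway between miR-124-3p and miR-124-5p, and the latter was not well above background on any tMCAO array. Their summed normalized level ran from 16.82 to 17.14 in sham and from 17.10 to 17.38 in tMCAO on the log2 scale. The members went both ways, between miR-218a-5p at -2.53 and miR-129-1-3p at 2.26, while miR-124-3p, the most studied neuronal miRNA, was at 0.18 with overlapping groups. The oligodendrocyte miRNAs, 4 tested of 5, get no median because it rests on miR-219a-5p, at background in tMCAO, and the summed level ran from 11.70 to 12.75 in sham and from 11.69 to 12.13 in tMCAO.

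White blood cell and microglial miRNAs, 8 tested of 9, went both ways, and they get no median because it rests in part on an undetected member. miR-223-3p, of myeloid cells, and miR-155-5p were detected on none of the 6 arrays, and miR-142-3p was not tested. miR-150-5p, of lymphocytes, was at 0.29 and miR-146a-5p, a brake on inflammatory signaling, at 0.27, both detected on all 6 arrays with overlapping groups. The summed level of the list, 13.31 to 13.58 in sham and 12.91 to 13.53 in tMCAO, overlapped as well. miR-21-5p was the only one of the 8 with an unadjusted p under 0.05, against 15.2% of all tested miRNAs.

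Red blood cell miRNAs were tested for 2 of 4 members. miR-451-5p was at 0.30 with overlapping groups and detected on all 6 arrays. miR-486 had log2 intensities of 6.77, 6.36 and 6.80 in sham and 7.85, 7.68 and 7.02 in tMCAO (limma adjusted p = 0.160), but was detected on 1 sham array and no tMCAO array, so no size is given. Their summed level overlapped, from 10.27 to 10.91 in sham and from 10.59 to 11.23 in tMCAO. Vessel wall and endothelial miRNAs had a median of -0.02 over 5 members, with miR-126a-3p at -0.34 and miR-145-5p at -0.02. That median was 0.01 with quantile normalization, -0.43 with spike-in centering and -0.89 with median scaling. With 1 rat left out it ran from -0.15 to 0.02. The summed levels ran from 13.94 to 14.17 in sham and from 13.71 to 13.98 in tMCAO.

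Markers of tissue that should not be in brain were dim. miR-122-5p, of liver, was detected on none of the 6 arrays, and none of the 7 muscle miRNAs was detected on all 6. The muscle miRNA miR-1-3p had log2 intensities of 8.17, 8.15 and 8.26 in sham and 7.32, 6.96 and 6.75 in tMCAO and was detected on the 3 sham arrays only. With 3 arrays at background its difference is a bound of at least 1.005-fold lower in tMCAO (limma adjusted p = 0.178, and 0.0129 with the 6 arrays alone). miR-133a-3p and miR-133b-3p, other muscle miRNAs, were at 0.62 and 0.58, so the list did not go one way, and its summed level overlapped between 10.09 and 10.47 in sham and 9.93 and 10.42 in tMCAO.

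miRNAs of epithelium, ependyma and choroid plexus were tested for 5 of 10 members, with 4 lower. Their median falls on a member at background in tMCAO, so it is not given. The summed level was 10.47 to 10.66 in sham and 9.86 to 10.24 in tMCAO, but no member was detected on all 6 arrays and the sum includes members at background, so it is no measured difference in level. The lower members were the miR-34/449 relatives of ciliated cells, of which miR-34b-5p and miR-449a-5p were not well above background on any tMCAO array and lay above 0 with spike-in centering, and miR-204-5p of choroid plexus at -0.78. miR-200b-3p was detected on none of the 6 arrays. The part of these cell types in the other differences was not tested.

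**Figure D4:**
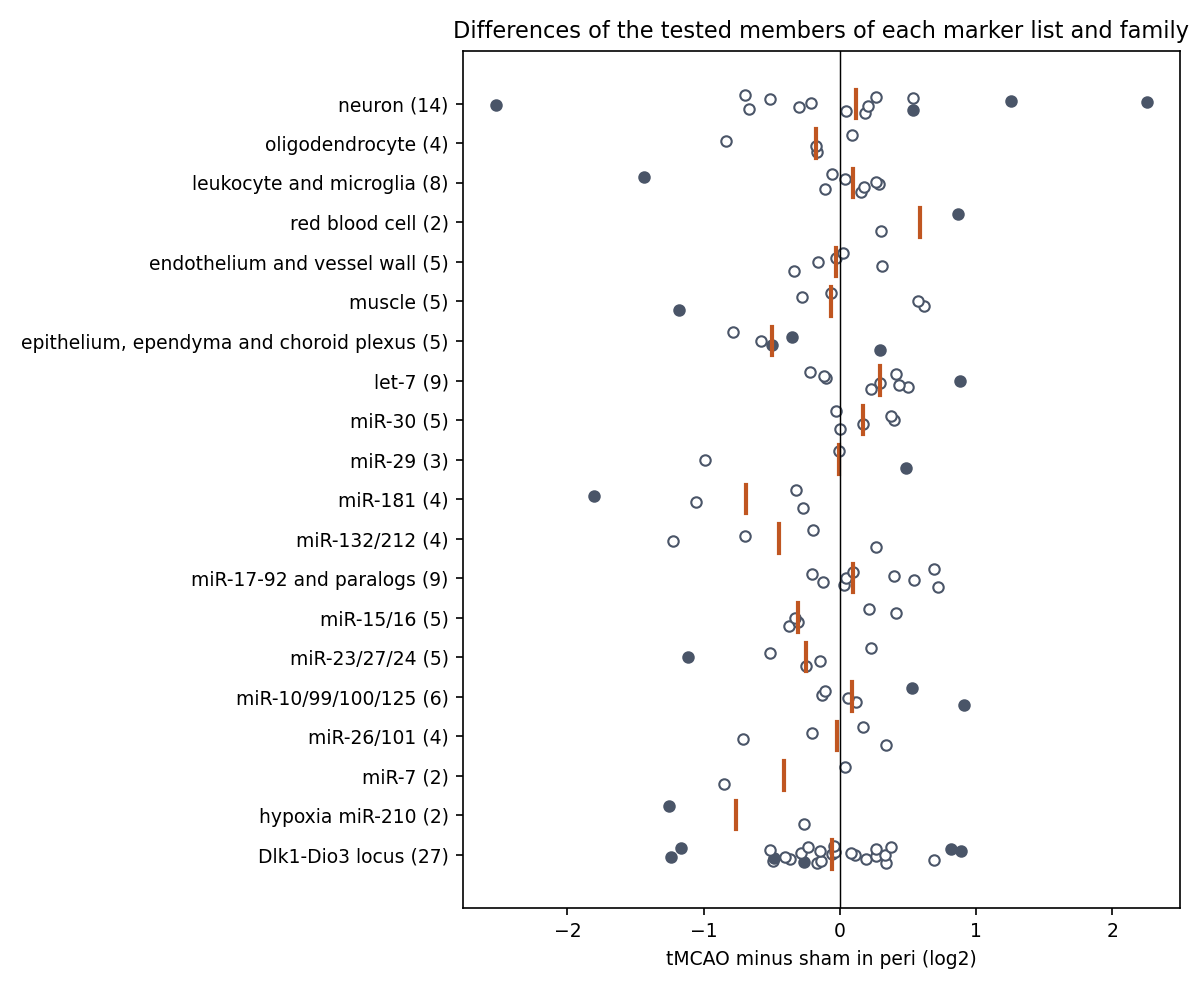
Each point is the tMCAO minus sham difference (log2) of a tested member of a marker list or miRNA family, with the number tested in parentheses; filled points have an unadjusted p under 0.05 and vertical bars mark the median. The 4 miR-181 members lie below 0 (miR-181a-5p was above 0 in the authors' table), some medians fall on members at background, and the neuronal list and the 27 Dlk1-Dio3 miRNAs spread to both sides.

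Among miRNA families, the miR-181 members were all lower, except for miR-181a-5p in the authors' normalized table, and the let-7 members mostly higher. The 4 miR-181 miRNAs, which share the seed ACAUUCA, had a median of -0.69, against -0.01 over all tested miRNAs, and the median stayed below 0 in all 6 other scalings. Without tMCAO rat 1 it was -0.33. miR-181b-5p was at -1.06, miR-181d-5p at -0.32 and miR-181a-5p at -0.27, each with overlapping groups. The 9 let-7 miRNAs, regulators of growth and differentiation that share the seed GAGGUAG, had a median of 0.30 with 6 higher and 3 lower, except that it was -0.59 with median scaling and -0.13 with spike-in centering. let-7b-5p was at 0.50 and let-7c-5p at 0.43, with groups apart, while let-7g-5p was at -0.12. The let-7 median was 0.18 without tMCAO rat 2.

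The miR-29 and miR-30 families had small medians in the main setting. That of the 3 miR-29 miRNAs was -0.01 and ran from -0.22 without sham rat 1 to 0.31 without sham rat 2. It was -0.87 with median scaling and -0.41 with spike-in centering. miR-29a-3p, which with its relatives acts on collagen transcripts, had log2 intensities of 14.38, 14.66 and 14.28 in sham and 15.02, 14.96 and 14.78 in tMCAO, a difference of 0.48 (limma adjusted p = 0.265). miR-29b-3p stood at -0.99 and miR-29c-3p at -0.01, so members with the seed AGCACCA differed in sign. The 5 miR-30 miRNAs had a median of 0.17, with miR-30c-5p at 0.40, except that it was -0.60 with median scaling, -0.15 with spike-in centering and -0.03 with plain subtraction of background, and 0.06 without tMCAO rat 3.

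The activity-regulated cluster of miR-132 and miR-212 had a median of -0.45 over 4 members, below 0 in all 6 other scalings, and -0.20 over the 3 detected on all 6 arrays. Its 5p arm miR-132-5p was at -1.23 and miR-212-3p at -0.70, both with groups apart, while the major arm miR-132-3p was at 0.26. The miR-23/27/24 clusters had a median of -0.25, below 0 in all 6 other scalings, and -0.096 without sham rat 1. miR-27a-3p had log2 intensities of 11.51, 11.77 and 11.08 in sham and 9.74, 10.33 and 10.96 in tMCAO, a difference of -1.11 (limma adjusted p = 0.178). miR-27b-3p, 1 edit away, was at -0.51. tMCAO rat 3 was nearest to sham for miR-27a-3p too.

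Neither arm of miR-210, the hypoxia-induced miRNA, had a higher mean in tMCAO. The major arm miR-210-3p had overlapping groups and was detected on 3 sham and 0 tMCAO arrays. The minor arm miR-210-5p had log2 intensities of 11.41, 11.86 and 11.88 in sham and 9.92, 10.26 and 11.20 in tMCAO. Its groups did not overlap, and tMCAO rat 3 lay nearest to sham. The difference was -1.26 with a standard error of 0.50 (limma adjusted p = 0.237).

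A list of 27 miRNAs of the imprinted Dlk1-Dio3 locus, many of them neuronal, went in both directions. The list does not hold the whole locus, and miR-668 and miR-494-5p, described above, are not among the 27. The median of the 27 was -0.06, with 11 higher and 16 lower, except that it was 0.04 both with quantile normalization and with plain subtraction of background, and leaving out 1 rat gave -0.13 to -0.01. It was -0.97 with median scaling and -0.51 with spike-in centering. Within the list, an unadjusted p under 0.05 was found for 6 of the 27, against 15.2% of all tested miRNAs. Of these, 2 were higher, miR-433-3p at 0.89 and miR-485-5p at 0.82, and 4 lower, miR-376a-3p at -1.24, miR-494-3p at -1.17, and miR-370-3p and miR-136-5p, which were not well above background on any tMCAO array. miR-376a-3p had log2 intensities of 10.38, 10.69 and 10.76 in sham and 9.05, 9.42 and 9.66 in tMCAO. It passed with the 6 arrays alone (limma adjusted p = 0.0319) and not with 9 (limma adjusted p = 0.186).

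The 15 miRNAs that the study displayed in a heat map of tMCAO and sham rats had a median of -0.21 in peri tissue, with 6 higher and 9 lower. None passed the adjusted test, against 0.564% of all tested miRNAs. The median was 0.0088 without tMCAO rat 1, -0.34 without tMCAO rat 3 and -0.46 without sham rat 3. In the 6 other scalings it ran from -1.18 with median scaling to -0.17 with quantile normalization, and it was -0.07 with GC correction. That list was chosen on arrays of this series and is not independent evidence of a direction. The study describes its figure as covering the whole ischemic area, not peri tissue alone, with a cut at p under 0.05. In core the same 15 had a median of -0.99, with 11 lower and 4 higher. In peri, apart from miR-218a-5p and miR-210-5p, the members ran from -1.06 for miR-181b-5p to 0.54 for miR-9a-3p. Each of these had an unadjusted p above 0.05, and 15.2% of all tested miRNAs had one below.

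Families were also defined by seed alone. Among the tested miRNAs, 15 seeds had 3 or more members, 63 miRNAs in all. The members of 1 seed were all higher, AUUGCAC of miR-25-3p, miR-92a-3p and miR-92b-3p, with a median of 0.51, but all 3 were lower with median scaling and with spike-in centering, at medians of -0.64 and -0.18. Those of 4 seeds were all lower, namely ACAUUCA of miR-181, GGCAGUG of miR-34 and miR-449a-5p, GGAAUGU of miR-1-3p, miR-1b and miR-206-3p, and UUUCAGU of the miR-30 3p arms. Each of these 4 had a member above 0 in at least 1 other setting, and the 3 apart from miR-181 had members not well above background on any tMCAO array, so no median is given for those 3. The spread within a seed reached 1.54 for miR-181, more than the size of the median of any of the 15 seeds. Across the 532 miRNAs the difference had a Spearman correlation of 0.12 with the GC content of the target and of -0.006 among the 176 detected on all 6 arrays, which describes miRNAs measured on the same arrays.

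Peri tissue was set against core tissue of the same rats, to ask where the difference between tMCAO and sham was not the same. In core, 18 of 532 miRNAs (3.38%) passed the adjusted test and 116 (21.8%) had an unadjusted p under 0.05. The test of peri change minus core change, over the difference between both arrays of each rat, passed for 0 miRNAs after adjustment in limma, and 46 (8.65%) had a p under 0.05 before adjustment. On the same differences, the methods' t-test also passed for 0 miRNAs after adjustment. A single miRNA passed with the authors' normalized table.

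**Figure D5:**
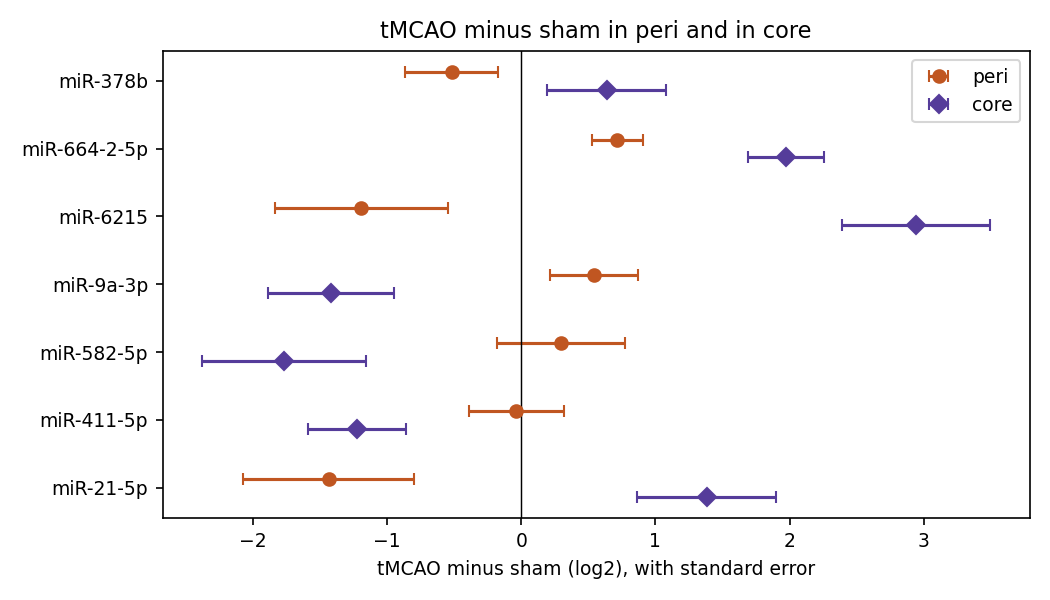
tMCAO minus sham (log2) with its standard error in peri (orange circles) and core (purple diamonds), n = 3 rats a group, for the 6 miRNAs with the smallest p for the difference between regions and for miR-21-5p. The peri value of miR-664-2-5p is at background. Most pairs of points lie on opposite sides of 0, but none of the differences between regions passed the adjusted test.

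The miRNAs with the smallest p in either direction were miR-6215, miR-664-2-5p and miR-378b, for which peri lay below core, and miR-9a-3p, miR-582-5p and miR-411-5p, for which peri lay above. miR-6215 was at -1.19 in peri and 2.94 in core, a difference between regions of -4.14 and a standard error of 1.12 (limma adjusted p = 0.425). miR-9a-3p, an arm of a miRNA of neurons and their precursors, was at 0.54 in peri and -1.42 in core, a difference between regions of 1.96 with a standard error of 0.50 (limma adjusted p = 0.425). The sham values of miR-9a-3p in peri, 12.47, 14.02 and 13.07, spanned those of the tMCAO rats, 13.46, 13.72 and 14.00. miR-664-2-5p was not well above background on any tMCAO peri array and was at 1.98 in core, where it was detected on all 3 tMCAO arrays. miR-378b was at -0.52 in peri and 0.64 in core. miR-582-5p was at 0.29 in peri and -1.77 in core, and miR-411-5p at -0.04 and -1.23, both with overlapping peri groups.

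miR-21-5p was lower in peri and higher in core. In core its log2 intensity was 11.11 ± 0.88 in sham and 12.49 ± 0.61 in tMCAO (SD, n = 3 rats each), a difference of 1.38, against -1.44 in peri. The difference between regions was -2.82 with a standard error of 0.91 and did not pass the adjusted test (limma adjusted p = 0.425). miR-568 was at -3.05 in peri and -3.50 in core, detected on 2 of the 3 tMCAO arrays in each region. miR-129-1-3p was at 2.26 in peri and 0.62 in core, a difference between regions of 1.64 with a standard error of 0.60 (limma adjusted p = 0.425).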

How the data were processed

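Total RNA (2 µg) of each sample was tailed, tagged and hybridized to a 1-color miRNA array by a service provider. The authors deposited spot intensities (pixel medians of the scanned image, not normalized) and a table of intensities that they had background-subtracted and normalized by locally weighted regression. From the spot intensities, background was corrected by normexp (offset 50), cyclic loess was run over 18 arrays with control spots at weight 0, the 4 spots of a probe were averaged on the log2 scale, and probes detected on at least 3 arrays were kept. limma 3.58.1 (R 4.3.3, variance trend, Benjamini-Hochberg) was fitted to 9 peri arrays in 3 groups and to the peri minus core difference of 9 rats, and tested on simulated data. Single values were compared by exact permutation tests. A bound sets the brighter group's mean against, per array, the higher of the lowest detected signal and the probe's own. Replicates are separate rats. Named miRNAs were those past the adjusted test, the 10 largest differences in each direction under the rule on size, list members, and 3 in each direction for peri against core. The members, lists and tests were chosen with earlier results of these data known. Genome positions were not used here. The number of arrays limits the precision.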

Additional observations from a re-analysis of the deposited data

How the results depend on the processing

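The number of miRNAs past the adjusted test was 3 and moved with the processing; the cause was not tested beyond what each alternative changes. It was 0 with plain subtraction of background, quantile normalization, the authors' normalized table, detection on at least 3 or on all of the 6 arrays, no variance trend, all 18 arrays with the rat as a random block, GC correction, the methods' t-test, and control spots kept in the loess. It was 1 with loess over the 9 peri arrays and 1 with spike-in centering, 27 with the 2 compared groups alone, 36 without PostC rat 3 and 128 (17 higher, 111 lower) with median scaling, where the median of all miRNAs stood at -0.42 and 28.2% were higher, against 48.5%. The share that were higher was 35.5% by the authors' normalized intensities, with 48.9% lower and 15.6% at the floor of that table in both groups, and 36.8% when control spots entered the loess. Leaving out 1 of the 6 rats gave 0 to 9. Settings added after seeing the data were those with control spots in the loess, without PostC rat 3 and with spike-in centering.

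Numbers of the rats are shared by the groups but gave no pairing, since deviations of same-numbered rats correlated at 0.07, 0.08 and -0.17. With the replicate block 7 miRNAs passed, and with the replicate block and GC correction 0.

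At an unadjusted p under 0.05, the count of 81 became 234 (48 higher, 186 lower) with median scaling, 138 with no filter, 44 and 25 with detection on at least 3 and on all 6 arrays, 129 with the 2 groups alone, 45 with the rat as a block, 131 without PostC rat 3, and 52 to 81 with 1 rat left out. The methods' t-test gave 115 (60 higher, 55 lower), and 53 (6 higher, 47 lower) at the methods' own limits of p under 0.1 and fold above 2 or below 0.7, with 0 after Benjamini-Hochberg. On the log2 scale those limits ask a smaller difference of a fall than of a rise, so the split of the 53 is no finding. The count without overlap, 168, became 279 (50 higher, 229 lower) with median scaling, 100 and 53 with the stricter detection filters, and 200 to 257 with 1 rat left out. For peri against core the count of 0 became 1 with the authors' table and stayed 0 in each fit that left out 1 rat. The gap in detected miRNAs, -170.3 per array, was -45.7 with the limit from dim spots and -201.8 to -125.3 with 1 rat left out.

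Over the named miRNAs, 888 of the alternative values kept sign and side of the threshold, 61 passed newly, 44 no longer passed and 24 changed sign. With median scaling these were miR-3084c-3p at -0.15, miR-433-3p at -0.29, let-7e-5p at -0.13, miR-674-3p at -0.33, miR-128-3p at -0.0081, miR-125b-5p at -0.030, miR-9a-3p at -0.21, miR-582-5p at -0.84, miR-29a-3p at -0.090, miR-485-5p at -0.053, miR-449a-5p at 0.030 and miR-136-5p at 0.11. With spike-in centering they were miR-582-5p at -0.38, miR-34b-5p at 0.087, miR-449a-5p at 0.49, miR-136-5p at 0.57 and miR-370-3p at 0.10. miR-411-5p, near 0, was at 0.18 with plain subtraction, 0.21 with quantile normalization, 5.45e-07 with control spots in the loess, and ran from -0.20 to 0.063 with 1 rat left out, above 0 without tMCAO rat 2, sham rat 1 or sham rat 2. miR-582-5p ran from -0.082 without tMCAO rat 3 to 0.73. Among the list medians given here, leaving out 1 rat turned the sign for neurons (-0.02) and the heat map (0.0088) without tMCAO rat 1, for miR-15/16 (0.07) without sham rat 2, and for the vessel wall, miR-29 and miR-26 with miR-101.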

Other observations

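Families tied to growth and cell cycle had medians in peri tissue that depended on the processing. The miR-17-92 cluster and its paralogs, known for promoting proliferation, had a median of 0.09 over 9 tested of 10, with 7 higher and 2 lower, except that it was -0.65 with median scaling and -0.19 with spike-in centering, and leaving out 1 rat gave 0.05 to 0.40. It was 0.40 among members detected on at least 3 of the 6 arrays, 0.47 among those detected on all 6 and 0.61 with plain subtraction of background. miR-17-5p was at 0.72 and miR-25-3p at 0.69, and neither had an unadjusted p under 0.05. The miR-15/16 family, which acts against cell cycle genes, had a median of -0.31 over 5 members, with 2 higher and 3 lower, but it was 0.07 without sham rat 2 and -0.081 without tMCAO rat 1. It was -1.18 with median scaling and -0.73 with spike-in centering. The group of miR-26 and miR-101 stood at -0.02 and ran from -0.33 to 0.32 with 1 rat left out. It was -1.21 with median scaling and -0.75 with spike-in centering. Of miR-7, 2 members were tested, and miR-7b was not well above background on any tMCAO array. The family of miR-10, miR-99, miR-100 and miR-125 had a median of 0.09 with 4 of 6 higher, miR-10a-5p and miR-125b-5p among them, except that it was -0.77 with median scaling, -0.31 with spike-in centering, -0.03 with control spots kept in the loess and -0.04 with plain subtraction of background, and leaving out 1 rat gave 0.00051 to 0.18.

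By arm, the 215 tested 5p miRNAs had a median difference of -0.01 and the 230 3p miRNAs one of 0.009, while the 87 without an arm in their name stood at -0.10. An unadjusted p under 0.05 was found for 14.0%, 13.9% and 21.8% of them. Over all tested miRNAs this was 15.2%, with 43 higher and 38 lower. By GC content, the counts at this p were 3 higher and 10 lower up to 40%, 12 and 14 over 40 to 50%, 14 and 10 over 50 to 60%, and 14 and 4 over 60%. These are counts over miRNAs on the same arrays, and no test was made of them.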
